A study of Mus musculus with 20 samples.

Results

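Genes whose proteins or reporters serve to recognise blood stem cells were followed in single cells of mouse bone marrow. The 10 markers are Slamf1, Cd48, Kit, Procr, Ly6a, Cd34, Fgd5, Pdzk1ip1, Esam and Ctnnal1, and they were matched by symbol to 10 of the 38561 Ensembl genes counted. Each of the 20 libraries is 1 cell of a C57BL/6J mouse, made with Quartz-Seq, which copies and amplifies the polyadenylated RNA of a cell by PCR. By the labels, all cells came from a gate that kept cKit-positive cells free of lineage markers. Within it, 9 cells were CD150-positive and CD48-negative, and are called CD150+CD48- cells here. The other 11 were CD150-negative, with no CD48 gate in the label, and are called CD150- cells. All 20 thus share strain, tissue and these 2 gates. Age, sex and animal are not given in the labels, so each group counted as 1 sample and no test between groups was made. Cells are named by the codes in their titles, whose letter is A or B in the first group and C or D in the second.

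Blood stem cells are rare and are isolated by combinations of surface proteins, none of which is specific alone. The receptor KIT, the product of Kit, binds stem cell factor and is carried by early blood cells. CD150 (encoded by Slamf1) and CD48 belong to the SLAM family of receptors, and mouse stem cells are mostly CD150-positive and CD48-negative. Sca-1 (Ly6a), the endothelial protein C receptor (Procr), ESAM (Esam) and CD34 (Cd34) are further surface proteins used in stem cell gates. Adult mouse stem cells with long-term activity are mostly low in CD34 protein. Fgd5, Pdzk1ip1 and Ctnnal1 are loci at which reporter alleles mark stem cells. None of these 7 was a gate in the labels, so the sort did not select on them directly. Whether the gates acted on them indirectly was not tested. Slamf1, Cd48 and Kit encode the gated proteins and are called gate genes here, although their mRNA was not what the gates measured.

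Promoter sequence is shown for 5 markers that differ in how their mRNA is spread over cells. Slamf1 and Cd48 are the gate genes read in few cells, Cd34 and Ctnnal1 had reads in part of the cells, and Pdzk1ip1 was read in nearly all. Each is 245 bases long, from 250 to 6 bases before the transcript start, 5′ to 3′ on the gene's strand, from RefSeq on GRCm38.p6. Capitals mark matches, on either strand and with no overlaps, to GATAA (a core of the sites of GATA factors), to GGAAG (of those of ETS factors) or to TGTGGT (of those of RUNX factors). Slamf1 lies at chr1:171766882-171767126 on the plus strand, and Cd48 at chr1:171681742-171681986 on the plus strand. Cd34 lies at chr1:194938571-194938815 on the plus strand, Pdzk1ip1 at chr4:115088458-115088702 on the plus strand, and Ctnnal1 at chr4:56865217-56865461 on the minus strand.
Slamf1: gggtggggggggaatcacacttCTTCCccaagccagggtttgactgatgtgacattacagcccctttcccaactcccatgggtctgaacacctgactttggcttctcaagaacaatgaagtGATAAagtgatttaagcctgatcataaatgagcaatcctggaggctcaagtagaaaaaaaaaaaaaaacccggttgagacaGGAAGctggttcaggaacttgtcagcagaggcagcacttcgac
Cd48: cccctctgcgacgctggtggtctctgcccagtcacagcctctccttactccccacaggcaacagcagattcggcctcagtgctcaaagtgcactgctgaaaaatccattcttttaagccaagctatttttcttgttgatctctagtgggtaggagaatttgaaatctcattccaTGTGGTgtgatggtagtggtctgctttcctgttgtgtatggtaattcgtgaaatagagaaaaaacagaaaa
Cd34: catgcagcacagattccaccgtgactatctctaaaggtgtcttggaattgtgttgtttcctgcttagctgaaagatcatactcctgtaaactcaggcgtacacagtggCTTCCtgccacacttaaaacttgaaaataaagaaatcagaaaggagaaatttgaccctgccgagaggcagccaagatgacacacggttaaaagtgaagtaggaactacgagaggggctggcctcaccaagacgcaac
Pdzk1ip1: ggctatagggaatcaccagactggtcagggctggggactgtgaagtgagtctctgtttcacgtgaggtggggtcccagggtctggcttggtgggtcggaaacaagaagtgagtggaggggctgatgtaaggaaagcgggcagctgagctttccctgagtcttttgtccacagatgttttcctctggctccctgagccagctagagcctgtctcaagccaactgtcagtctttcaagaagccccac
Ctnnal1: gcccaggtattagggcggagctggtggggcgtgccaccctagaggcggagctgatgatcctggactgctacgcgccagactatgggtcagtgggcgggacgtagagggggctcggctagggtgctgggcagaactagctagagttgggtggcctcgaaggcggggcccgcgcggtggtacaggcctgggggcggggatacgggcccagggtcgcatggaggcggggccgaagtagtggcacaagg
The Slamf1 window held 1 GATAA match, beginning 129 bases before the start, and 2 GGAAG matches, 228 and 48 bases before it. That of Cd48 held 1 TGTGGT match, 76 bases before the start, and that of Cd34 held 1 GGAAG match, 142 bases before it. No motif of the 3 was found in the windows of Pdzk1ip1 and Ctnnal1. Of 32851 RefSeq windows of the same length, 22.3% held GATAA, 63.1% GGAAG and 13.9% TGTGGT, so none of these matches is rare. The Ctnnal1 window was 68.6% G and C with 18 CpG sites, and those of Slamf1, Cd48 and Cd34 were 47.3%, 45.7% and 46.1% G and C with 2, 4 and 6 CpG sites. Pdzk1ip1 had 55.5% and 3 CpG sites, and the median over all windows was 52.2%. Windows of Kit, Procr and Fgd5 held 1 GGAAG match each per start and are not printed, and Esam and Ly6a had no entry. A match is a string of letters and not a bound site.

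Gene reads per cell lay between 660007 and 3722713 for CD150+CD48- cells, and for CD150- cells between 996440 and 5776125. Every cell was thinned at random to 660007 gene reads, so that shares of cells with a read compare at 1 depth, and levels are the thinned reads of a group scaled to a common total of gene reads (CPM). A single read in a cell is 1.52 CPM. A10 and A11 stood apart by their share of unaligned reads, 80.2% and 66.2%, against 2.49% to 46.3% in the other 18 cells. Several values without both are given below. For the 10 markers, 92 of 200 pairs of a gene and a cell had a read (46.0%), 82 of them 10 or more and 4 a single one. A marker was therefore mostly either unread or read many times. Thinning removed all reads of a marker in few cells, and of those removed the most were 9 of Ctnnal1 in A3 and 7 of Esam in D12. The others were 2 of Cd34 in A3, of Esam in B12 and of Ctnnal1 in C12, and 1 of Slamf1 in A8, of Cd34 in B4, of Ly6a in D3 and of Esam in D11.

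**Figure D1:**
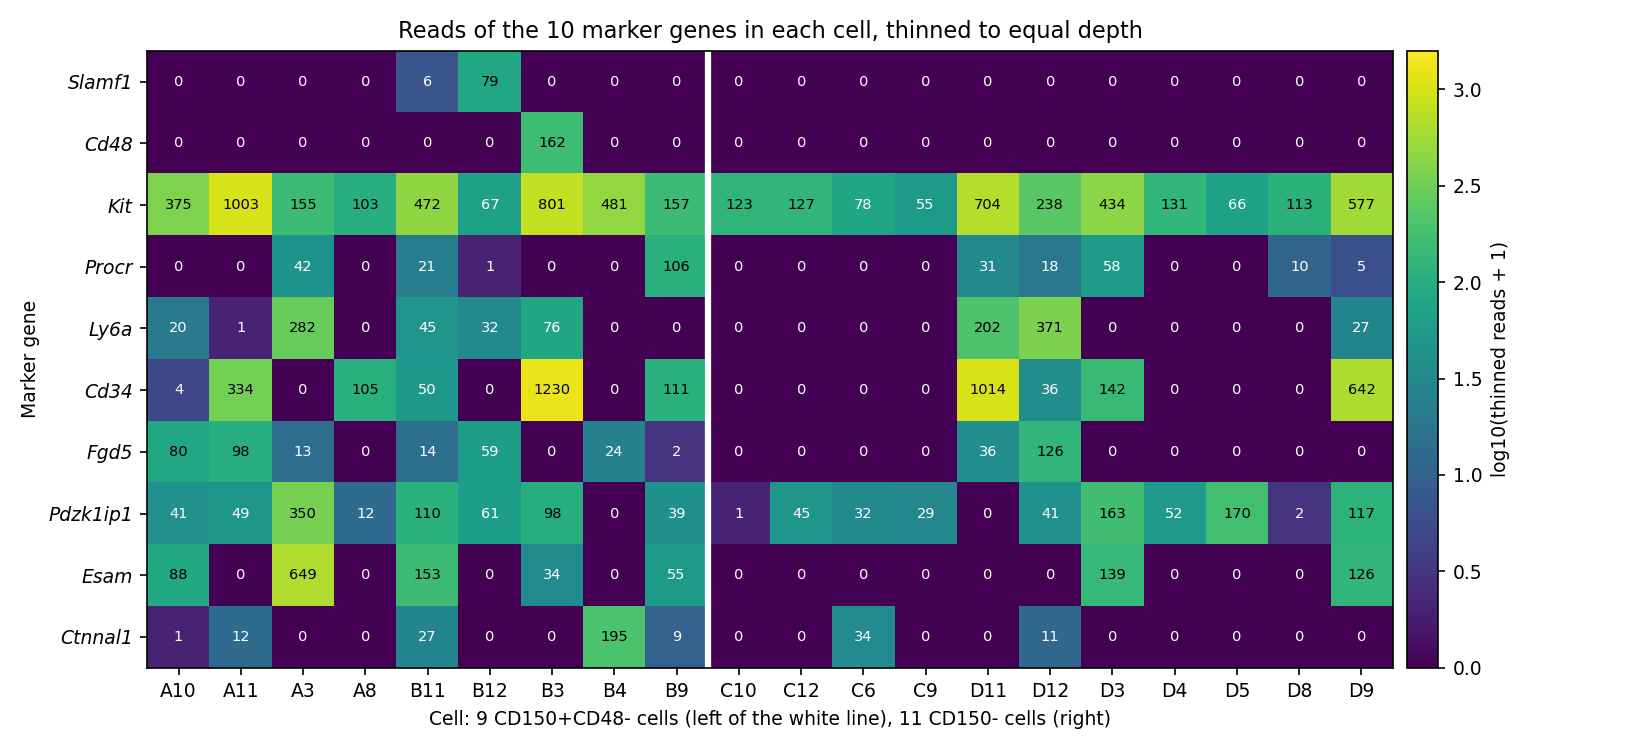
Thinned reads of the 10 markers (rows) in each of the 20 cells (columns), with 9 CD150+CD48- cells left and 11 CD150- cells right of the white line. Colour is log10 of thinned reads plus 1 and the number is the reads. Kit has reads in every cell, between 55 and 1003, Slamf1 in B11 and B12 and Cd48 in B3.

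Of the gate genes, Kit was read in all 20 cells, and Slamf1 and Cd48 in few. Kit (ENSMUSG00000005672, chr5:75574916-75656722, GRCm38) had 375, 1003, 155, 103, 472, 67, 801, 481 and 157 thinned reads in A10, A11, A3, A8, B11, B12, B3, B4 and B9. In CD150- cells it had 123, 127, 78, 55, 704, 238, 434, 131, 66, 113 and 577 in C10, C12, C6, C9, D11, D12, D3, D4, D5, D8 and D9. The ranges overlapped, and the high CD150- cells were D11, D9, D3 and D12. The level was 608 CPM (95% interval 589 to 629) in CD150+CD48- cells and 364.5 CPM (351 to 379) in CD150- cells, a 1.67-fold ratio (1.59 to 1.76). These exact Poisson and binomial intervals, here and below, cover the counting of reads only and leave out the spread between cells. The log2 fold of Kit was 0.74, ranging from 0.44 without A11 to 1.05 without D11, and was 0.41 without A10 and A11.

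Slamf1 mRNA was read in few of the cells sorted for its protein. Slamf1 (ENSMUSG00000015316, chr1:171767127-171801184) had 79 thinned reads in B12, 6 in B11 and 0 in the other 7 CD150+CD48- cells and in all 11 CD150- cells. No CD150- cell had a Slamf1 read, and 7 of the 9 cells sorted as CD150-positive had no thinned read either. Its share of cells was 22.2% (exact Clopper-Pearson 95% interval 2.81% to 60.0%) against 0 of 11, which allows up to 28.5%. The level was 14.3 CPM (11.4 to 17.7), at least 34.6-fold higher than in CD150- cells when 3 reads over those 11 cells are taken as the floor. B12 held 92.9% of these reads, and in B12 Slamf1 reached 7.39 reads per 1000 spike-in reads against 0.73 in B11.

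The gene of the protein gated out was read in 1 cell, and that cell carried the CD48-negative label. Cd48 (ENSMUSG00000015355, chr1:171682009-171705258), whose product is a GPI-anchored ligand of SLAM receptors, had 162 thinned reads in B3 and 0 in the other 19 cells. The 11 CD150- cells, not gated on CD48 by their label, allow a share of up to 28.5%. B3 also had the highest Cd34 of all cells, with 1230 thinned reads, and no read of Slamf1, Procr, Fgd5 or Ctnnal1. Its Kit, with 801 thinned reads, was second to that of A11 among CD150+CD48- cells. Whether B3 carried CD48 protein was not measured here.

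Cd48 ends 61868 bases before Slamf1 begins, and all 9 genes of the SLAM family list lie on chromosome 1. Of these 9, 6 had no thinned read in any cell (Cd244a, Ly9, Slamf6, Slamf7, Slamf8 and Slamf9), and Cd84 alone passed the gene filter. Cd84, a self-binding SLAM receptor of platelets and other blood cells, was read in 8 of 9 CD150+CD48- cells and 4 of 11 CD150- cells. It had 0, 62, 20, 32, 98, 243, 109, 204 and 56 thinned reads in the CD150+CD48- cells, in the order given for Kit. Among CD150- cells D11, D12, D3 and D9 had 9, 265, 142 and 240, and the other 7 had 0. Its levels were 139 and 90.4 CPM, with a log2 fold of 0.61, from 0.28 without B12 to 1.21 without D12. The reads of this neighbouring SLAM gene were thus spread over more cells than those of Slamf1.

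The 7 markers that were not gate genes followed the CD150 label in part. In 4 of the 11 CD150- cells, described below, 67.9% of pairs of these markers and a cell had a read. In CD150+CD48- cells 65.1% had one, and single markers differed in both directions. A gene passed the filter with at least 10 thinned reads in all and a read in at least 3 cells, which 11362 genes and 8 of the 10 markers did. Slamf1 and Cd48 were read in too few cells. A gene is called higher or lower where its log2 fold (CD150+CD48- over CD150-, with 1 CPM added to both) was at least 1 or at most -1. Of the 8, Fgd5, Esam and Ctnnal1 were called higher, beside 21.7% of all genes past the filter. None was called lower, beside 27.3%, and 5 were neither. All 3 calls were lost when a single cell was left out, A3 for Esam, B4 for Ctnnal1 and A11 among others for Fgd5. The median log2 fold of the 8 was 0.74, beside -0.09 over all genes, and for no gene past the filter, marker or other, did the cells of both groups keep apart (0%).

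By cells with a read, 5 of the 8 markers past the filter (Ly6a, Cd34, Fgd5, Esam and Ctnnal1) were read in a larger share of CD150+CD48- cells, beside 28.7% of genes past the filter. Pdzk1ip1 and Procr were read in a slightly smaller share, by -2 and -1 percentage points, beside 65.9%, and Kit in all cells of both groups. Counting Slamf1 and Cd48 too, 7 of the 10 markers had a larger share in CD150+CD48- cells. Without A10 and A11, which had no Procr read, 8 did, Procr among them. The difference of Pdzk1ip1 was -2 with all reads too, but 7.10 to 16.2 in 9 other random thinnings. Fgd5 had 7 of 9 cells (77.8%, 40.0% to 97.2%) against 2 of 11 (18.2%, 2.28% to 51.8%). Esam and Ctnnal1 each had 5 of 9 (55.6%) and 2 of 11 (18.2%), Ly6a had 6 of 9 (66.7%) and 3 of 11 (27.3%), and Cd34 6 of 9 and 4 of 11 (36.4%). The difference of Cd34, 30.3 percentage points, was 52.5 with all reads, and 30.3 to 52.5 in the 9 other thinnings, where that of Fgd5 was 48.5 to 59.6. The exact intervals of both groups overlapped for every marker. CD150- cells had more genes with a read at this depth, a median of 8350 against 5312, and over all genes past the filter the mean difference in share was -10.62 percentage points. The part of this difference in the marker shares was not tested.

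**Figure D2:**
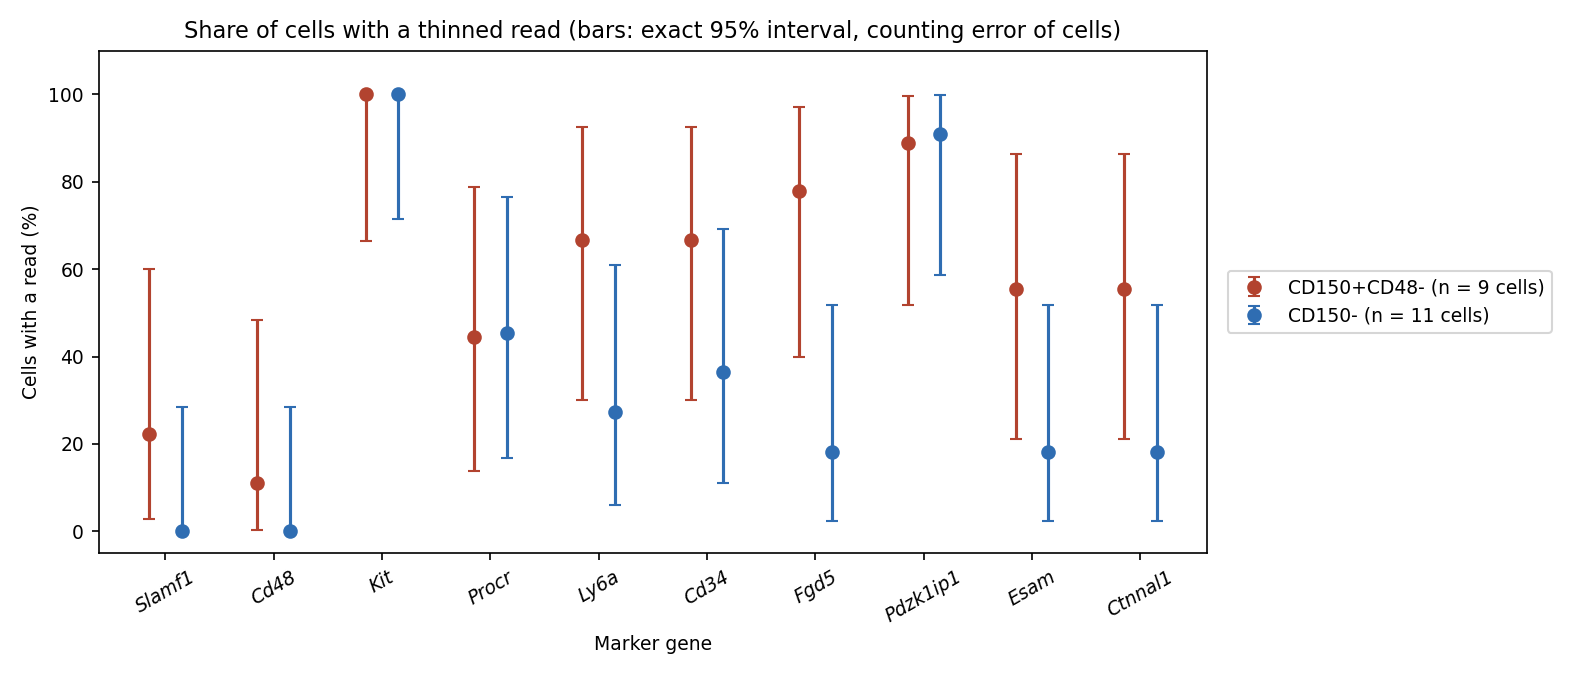
Share of cells with a thinned read (vertical axis, percent) for each marker (horizontal axis), red for 9 CD150+CD48- cells and blue for 11 CD150- cells. Bars are exact 95% intervals for the counting of cells. Fgd5 is read in 77.8% against 18.2% and Procr in 44.4% against 45.5%, and the bars of both groups overlap for all 10 markers.

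Among the surface proteins, Esam was the 1 called higher, and Procr, Ly6a and Cd34 were not called in either direction. Esam (ENSMUSG00000001946, chr9:37528078-37538319), an adhesion molecule of endothelial cells, platelets and stem cells, had 88, 649, 153, 34 and 55 thinned reads in A10, A3, B11, B3 and B9. It had 139 in D3 and 126 in D9, and 0 in the other 13 cells. Its levels were 165 CPM (155 to 176) and 36.5 CPM (32.2 to 41.2), a 4.52-fold ratio (3.94 to 5.19). The 2 CD150- cells with reads lay within the range of the CD150+CD48- cells with reads, and A3 alone held 66.3% of the reads of its group. The log2 fold of 2.14 fell to 0.76 without A3 and rose to 3.04 without D3.

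Procr did not separate the groups by share or by level. Procr (ENSMUSG00000027611, chr2:155751117-155755471), a receptor of protein C, had 42, 21, 1 and 106 thinned reads in A3, B11, B12 and B9. It had 31, 18, 58, 10 and 5 in D11, D12, D3, D8 and D9, so 4 of 9 and 5 of 11 cells had reads and the values interleaved. Its levels were 28.6 CPM (24.5 to 33.3) and 16.8 CPM (13.95 to 20.1), with a log2 fold of 0.73. Leaving out B9 turned this to -0.44, and leaving out D3 raised it to 1.47. Without A10 and A11 it was 1.09.

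Ly6a was read in a larger share of CD150+CD48- cells, while its level was slightly higher in CD150- cells, where D12 and D11 held most of the reads. Ly6a (ENSMUSG00000075602, chr15:74994877-74998031), which encodes Sca-1, a GPI-anchored protein, had 20, 1, 282, 45, 32 and 76 thinned reads in A10, A11, A3, B11, B12 and B3. It had 202 in D11, 371 in D12, the highest of all cells, 27 in D9 and 0 in the other 8 CD150- cells. The levels were 76.8 CPM (69.9 to 84.15) and 82.6 CPM (76.2 to 89.5), with a log2 fold of -0.11. That value was -1.30 without A3 and 1.12 without D12, so its direction rested on single cells. Without A10 and A11 together it was 0.19. Ly6a has close paralogs, and reads aligned to several places were kept out of gene counts, so its level is uncertain.

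Cd34 was read in 6 of 9 and 4 of 11 cells, with its highest values in B3 and D11, 1 cell of each group. Cd34 (ENSMUSG00000016494, chr1:194938819-194961279), a sialomucin of progenitor and endothelial cells, had 4, 334, 105, 50, 1230 and 111 thinned reads in A10, A11, A8, B11, B3 and B9. It had 1014, 36, 142 and 642 in D11, D12, D3 and D9. A3, B12 and B4 had no thinned Cd34 read, and neither had the other 7 CD150- cells, while with all reads A3 had 2 and B4 had 1. The levels were 309 CPM (295 to 323) and 253 CPM (241 to 264), with a log2 fold of 0.29, which was -1.14 without B3 and 1.31 without D11. An antisense gene, Gm16897, shares 148 exonic bases with Cd34 and had 88 reads in all cells together. Whether counting used the strand was not stated in the sources used here, so reads of both genes cannot be told apart where they overlap.

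Of the reporter loci, Fgd5 and Ctnnal1 were called higher in CD150+CD48- cells and Pdzk1ip1 was not. Fgd5 (ENSMUSG00000034037, chr6:91978878-92076004), an exchange factor for the small GTPase Cdc42, had 80, 98, 13, 14, 59, 24 and 2 thinned reads in A10, A11, A3, B11, B12, B4 and B9. It had 36 in D11 and 126 in D12, and 0 in the other 9 CD150- cells and in A8 and B3. The highest cell was thus a CD150- cell, although most CD150- cells had none. The levels were 48.8 CPM (43.4 to 54.8) and 22.3 CPM (19.0 to 26.0), a 2.19-fold ratio (1.80 to 2.67) and a log2 fold of 1.10. It was 0.75 with TMM factors, 0.68 with DESeq2 size factors and 0.98 with a pseudocount of 5 CPM, so the call was lost under each. It was 0.68 without A11, 2.95 without D12 and 0.11 without A10 and A11, which held the 2 highest values of their group.

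Ctnnal1 was read mainly in B4. Ctnnal1 (ENSMUSG00000038816, chr4:56810935-56865188), which encodes alpha-catulin, a relative of the alpha-catenins, had 1, 12, 27, 195 and 9 thinned reads in A10, A11, B11, B4 and B9. It had 34 in C6 and 11 in D12, and 0 in the other 13 cells. C6 was above all CD150+CD48- cells except B4, which held 79.9% of the reads of its group. The levels were 41.1 CPM (36.1 to 46.6) and 6.20 CPM (4.52 to 8.29), a 6.63-fold ratio (4.81 to 9.32). The log2 fold of 2.55 was 0.51 without B4 and 3.98 without C6.

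Pdzk1ip1 was the broadest marker after Kit. Pdzk1ip1 (ENSMUSG00000028716, chr4:115088708-115093899), which encodes MAP17, a small membrane protein that binds PDZ domains, had 41, 49, 350, 12, 110, 61, 98, 0 and 39 thinned reads in the CD150+CD48- cells, in the order given for Kit. In CD150- cells it had 1, 45, 32, 29, 0, 41, 163, 52, 170, 2 and 117, in the order given for Kit. Only B4 and D11 had none, so reads of this gene did not follow the CD150 label. The levels were 128 CPM (119 to 137) and 89.8 CPM (83.0 to 97.0), with a log2 fold of 0.51. Without A3, the highest cell, it was -0.21, and without D5 it was 0.80.

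CD150- cells differed among themselves in the number of markers read. Counting all 10 markers, CD150+CD48- cells had reads of 3 to 9 (median 6) and CD150- cells of 2 to 7 (median 3). B11 had the most, 9 of 10, with Cd48 the missing one, and A8 and B4 had 3 each. Of the 7 markers that were not gate genes, D12 had reads of 6, D9 of 5, and D3 and D11 of 4, within the CD150+CD48- range of 2 to 7. C10, C12, C9, D4 and D5 had reads of 1, which was Pdzk1ip1 in each, and C6 and D8 had reads of 2. No read of Ly6a, Cd34, Fgd5 or Esam was found in those 7 cells. Of the 7, 4 were the cells with code C, which together had 5 of 28 marker and cell pairs with a read, whereas D cells had 23 of 49 and A and B cells 18 of 28 and 23 of 35. These 7 were also the CD150- cells with reads of Ermap, a gene of the erythroid list described next. They had 9 of 49 pairs with a read (18.4%), and the 4 CD150- cells without Ermap reads had 19 of 28 (67.9%). CD150+CD48- cells had 41 of 63 (65.1%).

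Between the 7 CD150- cells with Ermap reads and the 4 without, reads of red cell genes ran the other way. The erythroid list (12 genes, such as Gata1, Klf1 and Epor) summed to 8658 CPM in D4, 11582 in C10, 12577 in C12, 14388 in D8, 14820 in D5, 15759 in C6 and 21813 in C9, each with 11 of the 12 genes read. In D12, D9, D11 and D3 the sums were 176, 649, 938 and 2523 CPM, with 1 to 5 genes read and Ermap at 0, and CD150+CD48- cells had 226 to 3079 CPM with 1 to 5 genes read. The 4 CD150- cells with the most markers were therefore those with few erythroid reads. Within CD150+CD48- cells this order did not hold. B11, with the most markers, had the highest sum there, 3079 CPM, and A8 and B4, with the fewest, had 668 and 411 CPM. Of the erythroid list, 11 genes passed the filter and all 11 were called lower in CD150+CD48- cells (median log2 fold -4.15). Over all genes past the filter, 27.3% were called lower. The part of the erythroid reads in the marker values was not tested.

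**Figure D3:**
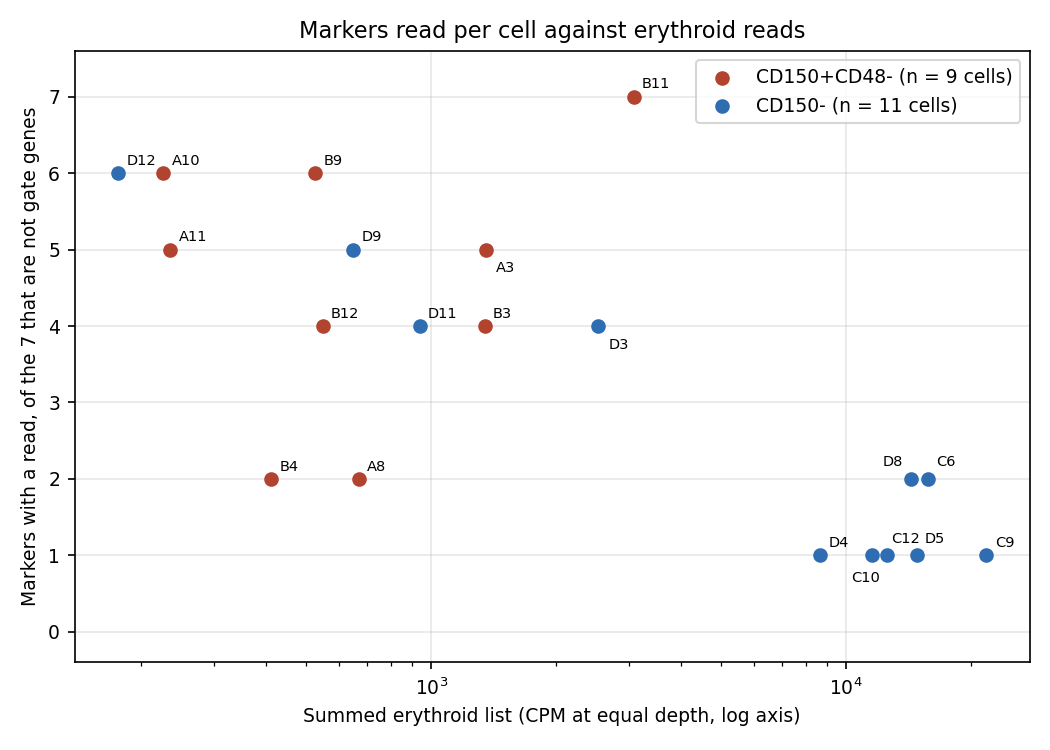
Number of the 7 markers other than gate genes with a read (vertical axis) against the summed erythroid list in CPM (horizontal log axis), 1 point a cell, red for CD150+CD48- and blue for CD150-. C10, C12, C6, C9, D4, D5 and D8 have 1 or 2 markers and 8658 to 21813 CPM, and the other 13 cells 2 to 7 markers and 176 to 3079 CPM.

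The order of Kit levels among cells depended on the yardstick. By gene reads, C10, C12, C6, C9, D4, D5 and D8 had 55 to 131 thinned Kit reads and D3, D9, D11 and D12 had 238 to 704. Per 1000 reads of the ERCC spike-ins, added in the lysis buffer of every cell, the same 7 had 12.7 to 58.4 Kit reads and the same 4 had 8.41 to 31.5, so that the ranges overlapped. CD150+CD48- cells had 5.64 to 129 on that scale. The cells differed in gene reads per ERCC read, with a median of 68.05 (range 22.3 to 109) in CD150+CD48- and 141 (range 12.7 to 302) in CD150- cells. How much mRNA a cell held and how much of it was captured cannot be told apart here. Per ERCC read, the log2 folds were 0.49 for Kit, 1.40 for Procr, -0.19 for Ly6a, 0.94 for Cd34, 2.01 for Fgd5, -0.53 for Pdzk1ip1, 2.97 for Esam and 1.68 for Ctnnal1. The median of all genes on that scale was -0.91, which is -0.82 from the main scale, so Pdzk1ip1, although below 0, was above the median gene.

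**Figure D4:**
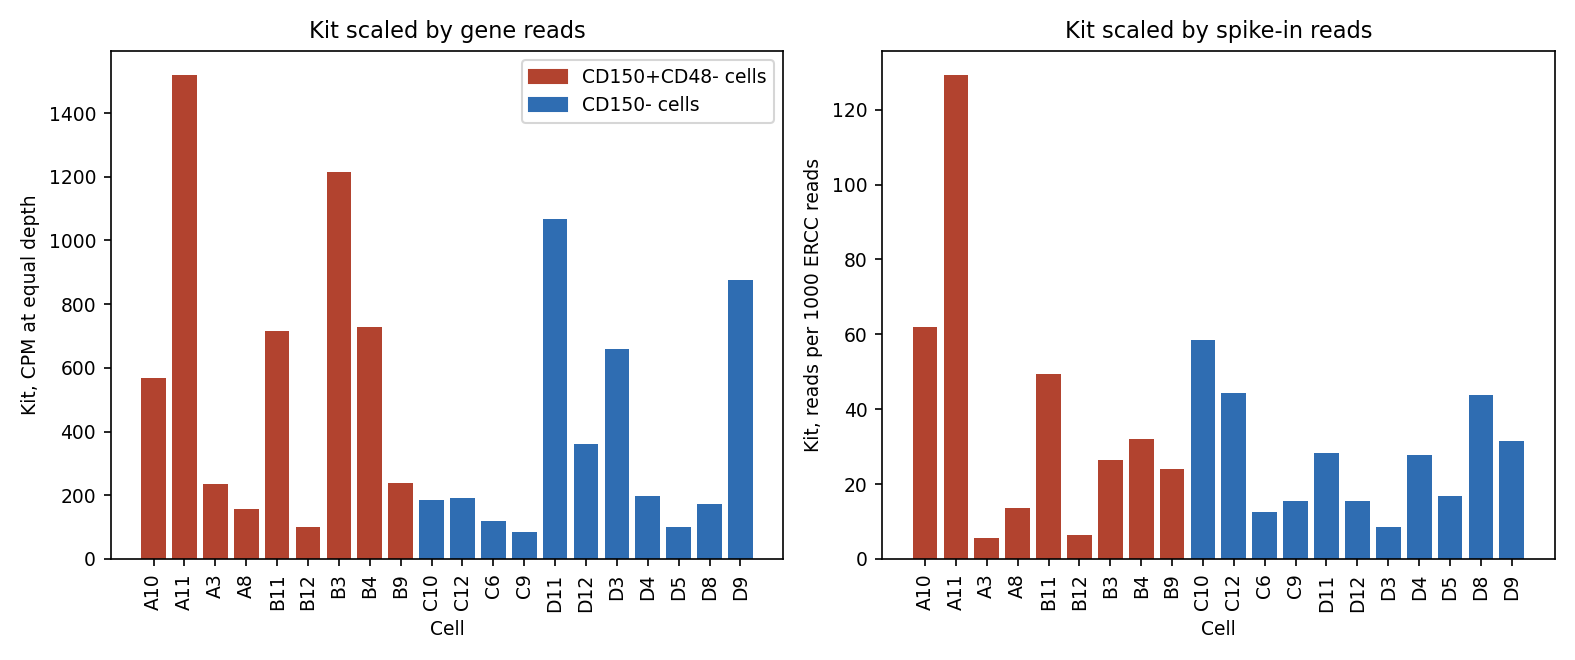
Kit in each of the 20 cells (horizontal axis), as CPM at equal depth (left) and as reads per 1000 ERCC spike-in reads (right), red for CD150+CD48- and blue for CD150-. D11, D12, D3 and D9 lie above the other CD150- cells on the left, and on the right C10 (58.4), C12 and D8 are the highest CD150- cells.

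Markers were read together in changing combinations. Of the 45 pairs of the 10 markers, 41 shared at least 1 cell with reads of both. The 4 pairs that shared none all involved Cd48, with Slamf1, Procr, Fgd5 and Ctnnal1, and follow from its reads being in B3 alone. All 21 pairs of the 7 other markers shared from 3 to 9 cells. Cd34 and Pdzk1ip1 shared the most, 9 cells, followed by Procr and Pdzk1ip1 and by Ly6a and Pdzk1ip1 with 8 each. Procr and Ctnnal1, and Esam and Ctnnal1, shared the fewest, 3 cells each.

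Overlaps differed between markers read in similar numbers of cells. Of the 7 cells with Ctnnal1, 6 had Fgd5 (A10, A11, B11, B4, B9 and D12), while Fgd5 and Esam shared 4 cells, none of them CD150-. D11 and D12, the CD150- cells with Fgd5, had no thinned Esam read, and D3 and D9, those with Esam, had none of Fgd5. With all reads, D12 had 7 of Esam and D11 had 1, so the lack of overlap there depends on the thinning. Fgd5 and Ly6a shared 7 cells, and both CD150- cells with Fgd5 had Ly6a above 200 reads. Slamf1 shared B11 and B12 with Procr, Ly6a, Fgd5 and Pdzk1ip1, and B11 alone with Cd34, Esam and Ctnnal1.

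**Figure D5:**
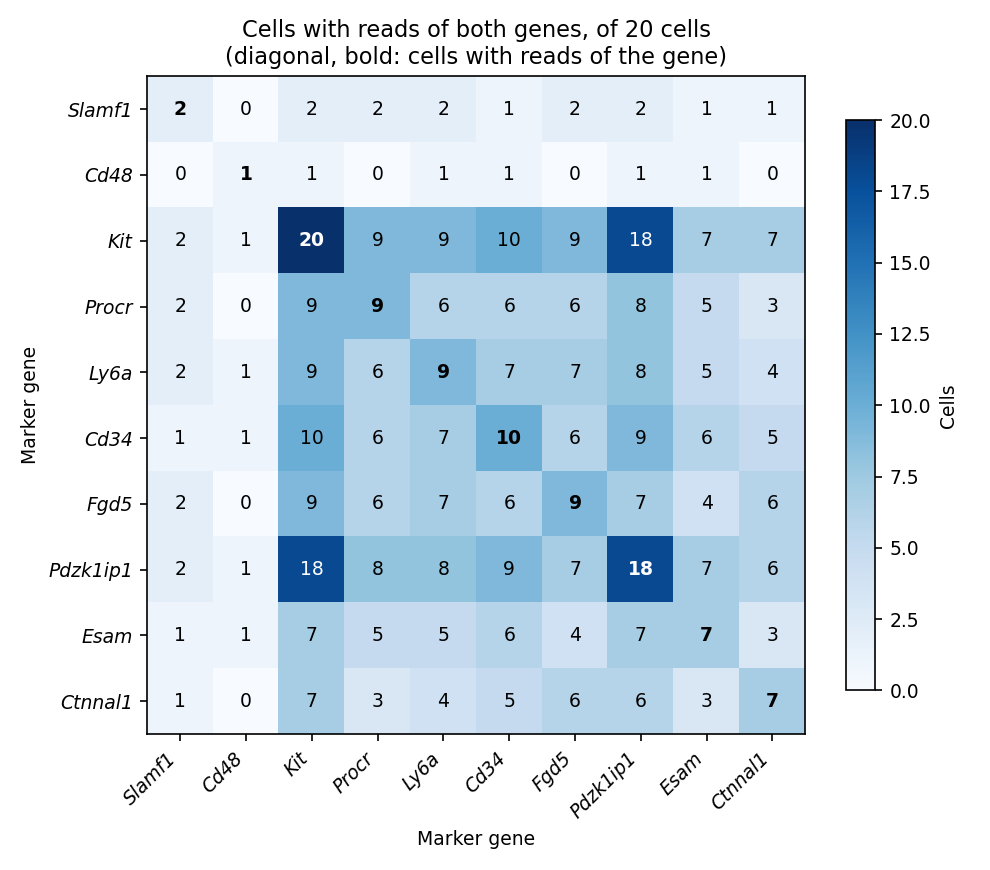
Number of the 20 cells with thinned reads of both the row and the column marker, darker for more cells, and on the diagonal in bold the cells with reads of that marker. Kit is read in all 20 cells, Pdzk1ip1 in 18, and Cd48 in 1, and its row holds 4 of the 0 values.

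Levels of pairs moved together weakly. Pearson's r of log2(CPM + 1) over the 20 cells had a median of 0.20 over the 21 pairs (range -0.20 to 0.59, 17 of them above 0). These are descriptions of 20 cells that share the cKit gate and the thinning, and values of 0 make up much of each series. Within the 9 CD150+CD48- cells the median was -0.01 (range -0.61 to 0.75, 10 above 0), and within the 11 CD150- cells 0.24 (range -0.31 to 0.89). Ly6a and Fgd5 had 0.59 over all cells, but 0.12 and 0.89 within CD150+CD48- and CD150- cells. Pdzk1ip1 and Esam had 0.55 over all cells and 0.64 and 0.47 within the groups, and Procr and Esam had 0.54, 0.66 and 0.49. Kit, a gate gene, had 0.75 with Cd34 over all cells, 0.47 in CD150+CD48- and 0.95 in CD150- cells. The 7 CD150- cells with Ermap reads had 0 thinned reads of Ly6a, Cd34 and Fgd5. Their Kit was 55 to 131 thinned reads, against 238 to 704 in the other 4. Values of r within CD150- cells thus in part restate this split. Pdzk1ip1 and Ctnnal1 had the lowest value, -0.20, which was -0.61 in CD150+CD48- cells.

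Per kilobase of exon, Pdzk1ip1, Kit and Ly6a had the 3 highest levels in both groups, and neighbours in the order did not differ beyond the spread of cells. In CD150+CD48- cells it ran Pdzk1ip1 (72.0 CPM per kb), Kit (68.3), Ly6a (63.7), Esam (57.5), Cd34 (42.4), Cd48 (22.9), Procr (14.1), Fgd5 (7.76), Ctnnal1 (5.36) and Slamf1 (2.32). In CD150- cells it ran Ly6a (68.6 CPM per kb), Pdzk1ip1 (50.5), Kit (40.9), Cd34 (34.7), Esam (12.7), Procr (8.27), Fgd5 (3.55) and Ctnnal1 (0.809), with Cd48 and Slamf1 at 0. The ranges of cells overlapped for each pair of neighbours. On this scale the reporter gene Fgd5, with 77.8% of CD150+CD48- cells read, was low, and Esam, with 55.6%, was higher. Ly6a, the first in CD150- cells, had a median of 0 over those cells, and the value of Cd48 came from B3 alone. Whether reads rise with exon length in these amplified libraries was not tested, so the order between genes is uncertain.

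A list of other genes used to enrich or mark stem cells was read beside the 10 markers. Of its 24 genes, 17 passed the filter, with a median log2 fold of 2.02. Of the 17, 12 were called higher and 1 lower, beside 21.7% and 27.3% of all genes past the filter. The highest were Cd9, a tetraspanin, at 5.49, and Tcf15, a transcription factor, with 255 thinned reads in 5 of 9 cells against 0 in the other group, at least 104-fold higher. The lowest were Cd81, also a tetraspanin, at -1.46, and Robo4, a guidance receptor, at -0.59, which was 2.85 without D9. Hoxb5, a reporter locus named after its values were seen, had 51 thinned reads, all in B12, the cell with the most Slamf1. Thy1, Prom1 and Gprc5c had no thinned read.

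Genes of progenitor gates and of the lineage cocktail were counted in the same way. Of 12 progenitor gate genes, 7 passed the filter, with a median log2 fold of -0.40. Of the 7, 1 was called higher and 3 lower, beside 21.7% and 27.3% of all genes past the filter. The highest were Csf3r, the G-CSF receptor, at 1.91 (0.69 without B3), and Cd55, a complement inhibitor, at 0.17. The lowest were Tfrc, the transferrin receptor, at -4.15, and Epor, the erythropoietin receptor, at -4.02. Of 12 lineage cocktail genes, 2 passed the filter, among them Itgam, an integrin of myeloid cells, at 0.17 with 9 thinned reads in each group. Klrb1c, a receptor of natural killer cells named after its values were seen, had 255 thinned reads in A11 and none elsewhere.

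Several of the 10 markers are also made by endothelial cells, so an endothelial list was read beside them. Of its 8 genes, 4 passed the filter, with Pecam1 at 3.54 and Tie1 at 3.46 called higher and Emcn at -2.91 and Plvap at -2.70 called lower. For this list and the 2 that follow, the shares over all genes past the filter were 21.7% called higher and 27.3% lower. Pecam1 was -0.89 without B3. Cdh5, Cldn5 and Sox17 had no thinned read in any cell, and Kdr had 30, all in B12. The list summed to 13.6 to 1077 CPM in CD150+CD48- and 0 to 279 CPM in CD150- cells. B3 had the highest sum. The megakaryocyte list had 7 of 10 genes past the filter, all called higher with a median of 4.48, and summed to 477 to 3773 CPM against 0 to 692 CPM. A8 and B4, the CD150+CD48- cells with the fewest markers, had the 2 highest sums, 3773 and 3574 CPM, with 9 and 7 of the 10 genes read. The neutrophil and monocyte list had 2 of 8 past the filter, both called higher (Lyz2 at 2.15, 0.66 without B4, and Prtn3 at 1.20, 0.99 without A11), with sums of 93.9 to 1227 and 0 to 533 CPM. The part of these cell type genes in the marker values was not tested.

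For each of the 7 markers, the genes with the most similar pattern over the 20 cells were listed from 10179 genes read in at least 5 cells. Procr was most like Esr1, the oestrogen receptor alpha gene (r = 0.87), Vav3 (0.80) and Fam49a (0.80). Ly6a was most like Dennd1c (0.93), Mettl27 (0.90) and Pafah2 (0.83), and Cd34 like Gpr171 (0.86), Arrdc4 (0.84) and Ift57 (0.83). Fgd5 was most like Cd63, a tetraspanin of granules and endosomes (0.90), Tnip3 (0.83) and Rora (0.81). Esam was most like Rgs14 (0.84), Icam2, an adhesion molecule (0.83), and Gsdmd (0.83), and Ctnnal1 like Eps8l1 (0.85), Ptger3 (0.81) and Pcbp3 (0.73). Pdzk1ip1, read in 18 cells, had lower values, with Helz (0.77), Rnf2 (0.66) and Zfand6 (0.65). Cd63 and Fgd5 had r = 0.79 within CD150+CD48- and 0.95 within CD150- cells, and all 9 cells with Fgd5 had Cd63. Esr1 had 0.95 and 0.86 with Procr within the groups. These are the highest of 10179 values each over 20 cells and are given as descriptions.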

How the data were processed

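Each of 20 samples is 1 sorted cell. The authors deposited whole-number read counts per Ensembl gene for every cell (38561 genes), with 5 summary rows, and a table of the series with 18464 of these genes, equal in counts, and 51 ERCC rows. Per the submitters' processing notes HTSeq, R 3.0.2 and GRCm38 were used, while aligner and strand setting were not stated in the sources used here. The protocol names no molecular identifiers, so reads were taken as PCR copies, and intervals and floors cover counting error only. Summary and ERCC rows stayed out of library sizes.

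The deposited counts were checked for repeated libraries: none of 190 pairs of cells was identical, and the highest r was 0.775. All cells had over 200000 gene reads, so none was left out. Each was thinned without replacement to 660007 gene reads (seed 7), the depth of the shallowest cell, and group levels are sums in CPM. Gene symbols were matched for 36639 identifiers, and coordinates are from GENCODE M21 on GRCm38. Log2 folds have a pseudocount of 1 CPM, and understate differences of low genes. The filter was 10 thinned reads and 3 cells, and the threshold a log2 fold of 1. Against a group with 0 reads the fold is a bound at 3 reads over the group. Intervals are 95% exact Poisson, conditional binomial and Clopper-Pearson. Cells are not replicates, each group is 1 sample, and no p-value is given.

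The 10 markers and the 8 other gene lists were chosen with earlier results of these data known. Named genes are the markers, the 2 highest and 2 lowest log2 folds of each list past the filter, and for each marker read in 5 to 19 cells the 3 genes of highest r, unless said otherwise. Cd244 is listed as Cd244a. The values of 2 genes of these lists are not reported here. On simulated counts, 94 of 100 genes raised 4-fold and 91 of 100 lowered 4-fold among 11362 genes had the right direction, with median log2 folds of 2.22 and -1.99. The changed genes were drawn from those with more reads per cell than Slamf1, Cd48, Procr and Ctnnal1, so the simulation does not cover these markers. It also held no subgroups of cells within a sort group, unlike the CD150- cells here. Alternatives were all reads, ERCC scaling, edgeR 4.0.16 TMM factors, DESeq2 1.42.0 size factors, other pseudocounts, filters and averages, the title codes, 9 other thinnings, leaving out each cell and, chosen after seeing the data, leaving out A10 and A11. Python 3.11.15, numpy 2.4.6, scipy 1.17.1, pandas 2.3.3, matplotlib 3.10.9 and R 4.3.3 were used.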

Additional observations from a re-analysis of the deposited data

Results flagged for a closer look

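In 8 of the 12 values examined over the 9 CD150+CD48- cells, 1 cell lay far above the rest. The rule used (Dixon's) picks out about 1 in 20 groups when values have a normal spread. Read counts with many values of 0 do not have that spread, so no chance rate applies here and the cells are given as descriptions. For the gate genes these were B12 for Slamf1, with 79 thinned reads and the next cell at 6, and B3 for Cd48, with 162 and the next at 0. A3 was the high cell for 3 markers, with 282 thinned reads of Ly6a (next 76), 350 of Pdzk1ip1 (next 110) and 649 of Esam (next 153). B3 had 1230 thinned reads of Cd34 (next 334), B9 had 106 of Procr (next 42), and B4 had 195 of Ctnnal1 (next 27). Kit and Fgd5 had no such cell. The 11 CD150- cells are more than the limits used here for this rule cover, and were not examined. Single high cells occur there too, such as D12 for Fgd5, with 126 thinned reads and the next cell, D11, at 36.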

How the results depend on the processing

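No paired analysis was possible because each library is 1 cell and the title codes give no number that is shared between cells of both groups by design. The count of markers called higher, 3, became 5 with the mean of log2(CPM + 1) per cell, 5 with no filter on low counts, 5 in 1 of 9 other random thinnings (2 to 4 in the others), 2 each with TMM factors, DESeq2 size factors and a pseudocount of 5 CPM, where the call of Fgd5 was lost, 7 with codes A and C only and 1 with codes B and D only. It ranged from 2 to 6 when each cell was left out, with 2 for most cells, A3 among them, and 6 without D11. The call of Fgd5 was lost even without single CD150- cells that had no Fgd5 read, such as C10, where its log2 fold was 0.96. In the 9 other thinnings that log2 fold was 0.93 to 1.22. The count called lower, 0, became 1 with codes A and C only and 1 with codes B and D only, and ranged from 0 to 1 when each cell was left out, with 1 without A3 (Ly6a at -1.30) and 1 without B3 (Cd34 at -1.14). Fgd5 turned to -0.22 with codes B and D only, and Ctnnal1 to -1.23 with codes A and C only. The cause was not tested. Per ERCC read 4 markers were called higher, and all genes split into 15.1% higher and 47.9% lower, in place of 21.7% and 27.3%. With codes A and C only the split was 27.5% and 36.6%. The mean of log2(CPM + 1) moved the median of all genes by -0.38 and gave Ly6a 1.67 and Cd34 1.75. Without A10 and A11 the counts were 3 higher and 0 lower. Over all reads, thinnings, read minimums and cells left out, the median number of markers per cell stayed between 5 and 7 in CD150+CD48- and between 2 and 3 in CD150- cells, and 36 to 41 of 45 pairs shared a cell. A marker with no read in a cell may be below detection, as 1 read of a cell is 1.52 CPM.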
